A study of Mus musculus with 4 samples.

Results

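The loci of Tal1, Lyl1, Lmo2, Ldb1 and Hhex, 5 genes of the SCL/TAL1 transcription factor complex and its targets, were compared in lists of accessible chromatin from hematopoietic stem cells (HSCs) with and without the mediator subunit Med23. A locus was the annotated gene body with 50 kb on each side, and every peak that overlapped it was included. The loci held 36 of the 37887 peaks in the WT list and 39 of the 37615 peaks in the KO list on the autosomes and chromosome X. Overlapping peaks of both lists were merged into regions, which gave 42 of 45475 regions. The genes were chosen by name and the regions by position.

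HSCs were profiled by ATAC-seq, which uses the Tn5 transposase to cut and tag open DNA for sequencing. By the labels they were sorted as LSK CD150+CD34-CD48- cells, while the study's methods for this assay name no selection on CD34, and they came from the bone marrow of adult C57BL/6 mice. The genotypes were WT(Med23floxp/flowp) and KO(Mx1-cre;Med23floxp/flowp), so mice of both groups carried the floxed Med23 allele and differed by the cre transgene. Mx1-cre is driven by an interferon-responsive promoter, was induced by injection of poly(I:C), and acts in many cell types besides HSCs. The labels name 2 samples for each genotype but give both the same peak list, so 1 WT list was set against 1 KO list. There were thus no replicates to test a difference against, and every interval covers counting error only.

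TAL1 (also called SCL) and its close relative LYL1 are basic helix-loop-helix proteins that bind E-box sequences together with E proteins. LMO2 binds no DNA itself and bridges them to GATA factors, and LDB1 dimerizes through its own domain and links such complexes at distant sites. The complex is required to form and maintain HSCs, and HHEX is a homeobox factor of the blood and endothelium whose first intron holds an enhancer bound by TAL1 and ETS factors. Enhancers of Tal1 in blood and endothelial cells are known by their distance from its first promoter, at −4, +19 and +40 kb, the last of them active in erythroid cells.

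The sequences of 6 windows of 200 bp are shown. Those of Tal1 are at the regions nearest by distance to its best known elements, and were not shown to be those elements. Those of Lmo2 are the site with the highest ratio of its locus and the one called in the WT list alone. The remaining one is a site near Lyl1 that held matches to the composite motif of the complex. Each window is centred on the summit of the list with the higher pileup and contains no annotated exon. The sequences are from GRCm38.p6, which is mm10. Capitals mark matches on either strand to 4 motifs. The E-box, bound by TAL1 with E proteins, was searched as CAGNTG. The motif of the GATA factors was spelled AGATAA and is the usual form in blood genes. That of the ETS factors, which include PU.1 and ERG, was searched as GGAAG. That of RUNX1 was searched as TGTGGT. The composite by which TAL1 is known to bind together with a GATA factor was counted as well, as CTG and 8 or 9 bases of any kind before the letters of GATA, and is not in capitals where it extends past the E-box or GATA match it overlaps.

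Tal1 −3.7 kb (chr4:115052628-115052827, plus strand): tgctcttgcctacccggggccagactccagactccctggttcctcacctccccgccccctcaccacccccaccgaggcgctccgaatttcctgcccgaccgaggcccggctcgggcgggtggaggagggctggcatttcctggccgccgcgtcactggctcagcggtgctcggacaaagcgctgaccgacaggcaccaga
Tal1 +19.3 kb (chr4:115075583-115075782, plus strand): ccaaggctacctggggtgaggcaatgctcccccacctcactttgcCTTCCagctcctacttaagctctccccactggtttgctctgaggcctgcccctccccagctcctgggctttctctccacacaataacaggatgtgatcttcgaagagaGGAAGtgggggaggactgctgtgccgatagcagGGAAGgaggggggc
Tal1 +39.4 kb (chr4:115095766-115095965, plus strand): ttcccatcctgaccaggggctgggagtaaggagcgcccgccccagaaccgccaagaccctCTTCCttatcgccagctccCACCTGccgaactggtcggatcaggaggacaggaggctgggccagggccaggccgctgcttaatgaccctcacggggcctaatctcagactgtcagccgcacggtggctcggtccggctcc
Lyl1 +29.5 kb (chr8:84730906-84731105, plus strand): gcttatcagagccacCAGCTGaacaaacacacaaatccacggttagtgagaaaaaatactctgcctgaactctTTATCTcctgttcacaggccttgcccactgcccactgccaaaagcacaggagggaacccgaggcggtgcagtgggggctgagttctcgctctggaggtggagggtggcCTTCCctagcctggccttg
Lmo2 −12.1 kb (chr2:103945824-103946023, plus strand): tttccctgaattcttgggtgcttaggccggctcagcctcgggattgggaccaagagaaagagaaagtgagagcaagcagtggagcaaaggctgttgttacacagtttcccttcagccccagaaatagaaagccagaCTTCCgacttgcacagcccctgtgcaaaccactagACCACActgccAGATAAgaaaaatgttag
Lmo2 +24.5 kb (chr2:103982348-103982547, plus strand): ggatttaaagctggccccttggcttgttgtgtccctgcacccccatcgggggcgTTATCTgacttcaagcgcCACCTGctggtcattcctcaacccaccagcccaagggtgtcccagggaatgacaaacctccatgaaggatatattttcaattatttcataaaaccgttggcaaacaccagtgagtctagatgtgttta

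The window at Tal1 +19.3 kb held 3 ETS matches and none of the other motifs. That at Tal1 +39.4 kb held 1 ETS match and 1 E-box match, and that at Tal1 −3.7 kb held no match of any of them. The window at Lyl1 +29.5 kb held 2 composite matches, of which 1 overlapped the E-box match and the other the GATA match. The window at Lmo2 −12.1 kb had ETS, RUNX and GATA matches, and that at Lmo2 +24.5 kb had a GATA and an E-box match. A match is a string of letters and does not show binding. Only these spellings were searched, so a window without a match may still hold another form of a motif.

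Across the 42 windows of these loci, 13 held an E-box (31.0%, against 39.7% of all 45475 windows) and 23 an ETS motif (54.8%, against 66.7%). A GATA motif was found in 6 (14.3%, against 8.81%), a RUNX motif in 5 (11.9%, against 20.5%) and the composite in 2 (4.76%, against 4.60%). Both windows that matched the composite as spelled here lay in the Lyl1 locus, at the Lyl1 promoter and in the Nfix intron. The GC content of the windows had a median of 59.5%, against 52.5% over all regions, and was 65% at promoters and 56% elsewhere in the loci. RefSeq promoter windows around annotated starts (GRCm38.p6) were matched by symbol for Tal1, Lyl1, Ldb1 and Hhex. The one at the first Tal1 start held an E-box, a GATA and a composite match, and no other of them held the composite. An E-box was also found at Lyl1 and at an Ldb1 start, the latter with a GATA match. The second Tal1 start held only an ETS match, as did Hhex. Each of these genes had a window with an ETS match, and none had a RUNX match. Among all 32851 promoter windows, 51.4% held an E-box, 11.2% the GATA motif and 4.69% the composite. The ETS motif was in 71.4% and the RUNX motif in 16.8%.

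Both lists called most of the accessible sites at the 5 loci. Of the 42 regions, 31 were shared (73.8%, 95% Wilson interval 58.9 to 84.7), against 64.8% of all regions. Those in the WT list alone numbered 4 (9.52%, against 18.1% of all regions) and those in the KO list alone 7 (16.7%, against 17.2%). The peaks covered 30835 bp in the WT list and 31670 bp in the KO list, 835 bp more, and mean peak widths were 857 bp and 812 bp. Summits of both lists lay within 100 bp of each other in 21 of the 31 shared regions, and over all regions in 74.1%. The largest distance was 489 bp, at the second promoter of Ldb1.

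**Figure D1:**
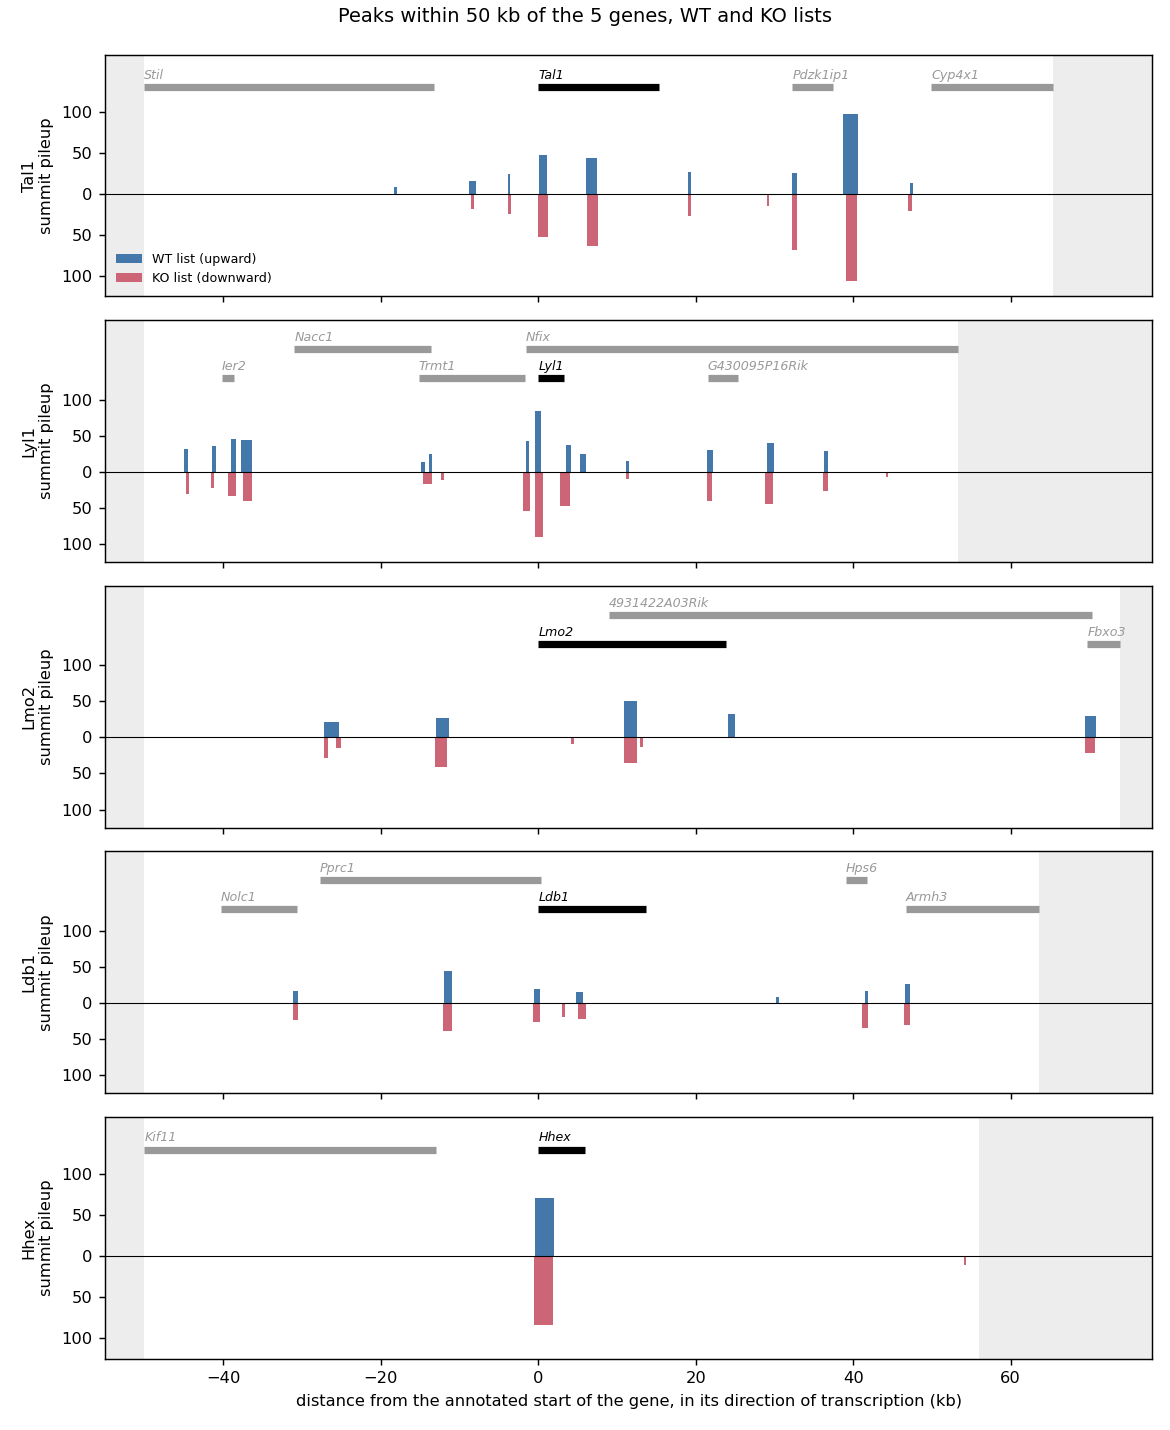
Peaks at the 5 loci by distance from the annotated gene start (kb, in the direction of transcription), with the summit pileup of WT peaks drawn upward and that of KO peaks downward. Black bars are the named genes, grey bars are other coding genes and grey fields lie outside the locus. The tallest peaks of both lists lie at Tal1 +39.4 kb (97 in WT and 106 in KO).

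The height of a peak was taken as its summit pileup, the number of fragments or reads stacked at the summit, which was recovered from the deposited fold enrichment and −log10 p. To compare lists, the pileup was divided by the genome-wide background of its list (1.19 in WT and 1.13 in KO). The median log2 KO to WT ratio over the 29 regions with 1 peak of each list was 0.23, with quartiles of −0.02 and 0.58. Over all 28909 such regions it was 0.17, with quartiles of −0.10 and 0.43. The ratio was above 0 in 21 of the 29 and below 0 in 8, where 65.6% of all regions were above 0, and 18 of the 29 were above the median of all regions and 11 below it. Relative to the median of all regions, 3 were past 1.5-fold toward higher in KO (10.3%, against 7.64% of all regions) and 2 toward lower (6.90%, against 7.92%). By type, the median was 0.28 at the 6 promoter regions of the 5 genes, 0.45 at 9 promoter regions of their neighbors and 0.18 at the 14 regions away from promoters.

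The fold enrichment, which is the summit pileup over the local background of the same list after 1 is added to each, was higher in KO in 27 of 31 shared regions, and in 77.6% of all shared regions. Its median over the peaks at the loci was 5.66 in WT and 6.79 in KO, and over all peaks 6.38 and 7.44. The local background was lower in KO in 27 of 31 shared regions, against 81.7% of all. At these loci it was high in both lists, with a median of 3.88 in WT and 3.47 in KO, where all peaks had 1.85 and 1.67. The summits were high as well, with a median pileup of 28 in WT and 27 in KO, against 18 and 19 over all peaks. Over the genome, regions in 1 list only had a median pileup of 10 in WT and 11 in KO. The shares over all regions given here were not matched for pileup.

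**Figure D2:**
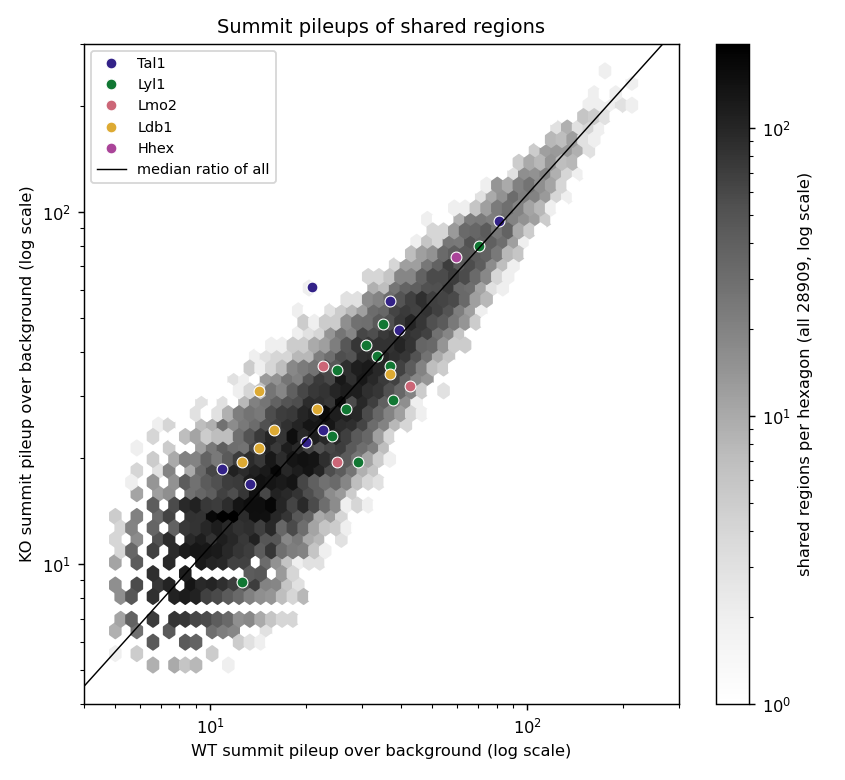
Summit pileup over background in WT (x axis) and KO (y axis), both on log scales, for all 28909 regions with 1 peak of each list (grey hexagons, darker with more regions) and for the 29 regions at the 5 loci (colored points). The line is the median ratio of all regions, a log2 of 0.17. The Tal1 point furthest above it is the Pdzk1ip1 promoter, with a log2 ratio of 1.55.

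The gene bodies and windows differed in how densely they were covered. The peaks of each list numbered 9 at Tal1, 14 at Lyl1 and 7 at Ldb1, while Lmo2 had 5 in WT and 7 in KO and Hhex 1 and 2. Among all 21755 coding genes the median was 4 in both lists. Covered bases were more in KO at Lyl1 (1140 bp), Ldb1 (901 bp) and Hhex (208 bp) and fewer in KO at Tal1 (−319 bp) and Lmo2 (−1095 bp). The middle 50% of all coding genes ran from −390 to 320 bp, with a median of 0.

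**Figure D3:**
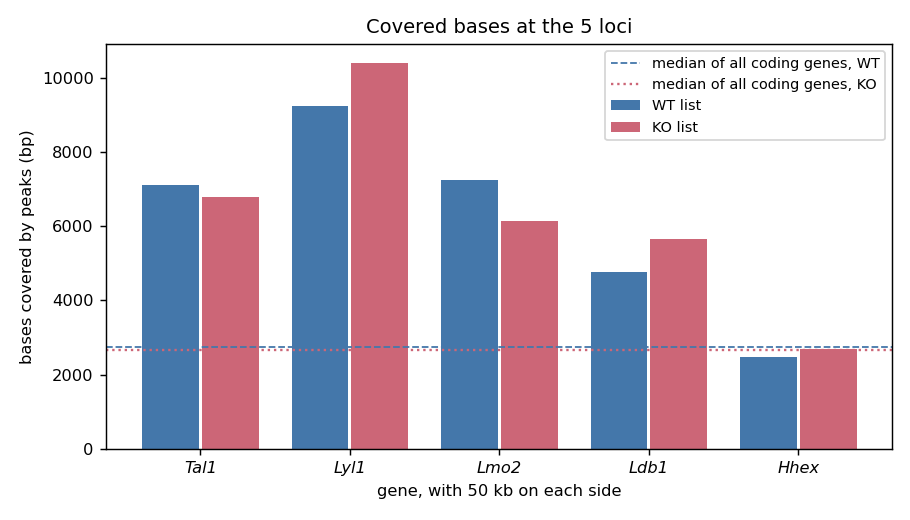
Bases covered by peaks (bp) at each gene with 50 kb on each side, in the WT and the KO list, with the median of all coding genes as dashed (WT, 2745 bp) and dotted (KO, 2666 bp) lines. Tal1, Lyl1, Lmo2 and Ldb1 are above both lines, and Hhex is below the WT line and just above the KO line.

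Tal1 (ENSMUSG00000028717.12, chromosome 4, 115056426 to 115071755, plus strand) encodes the E-box binding factor for which the complex is named. Its locus was covered over 7115 bp in WT and 6796 bp in KO. Of its 10 regions, 8 were shared. The promoter peak, from 115056451 to 115057721 over both lists, had a pileup of 47 in WT and 52 in KO, for a log2 ratio of 0.23 (95% binomial interval −0.37 to 0.83). Its fold enrichment was 6.31 in WT and 8.66 in KO. The promoter of Tal1 was open in both lists, and the interval of its ratio included 0.

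Each of the 3 known distances from the Tal1 promoter had a shared region within 1.5 kb, with summits 257 to 560 bp from these distances. The regions were matched by distance alone. The region at −3.7 kb, from 115052634 to 115052985, had a pileup of 24 in WT and 25 in KO (log2 ratio 0.14, −0.72 to 1.02). At +19.3 kb, near the distance of a known stem cell enhancer, the pileup was 27 in both lists (0.09, −0.74 to 0.91) and the summits lay 28 bp apart. The region at +39.4 kb, from 115095163 to 115097034, had the highest summed pileup of the 42, with 97 in WT and 106 in KO (0.21, −0.20 to 0.63). All 3 of these regions had ratios whose intervals included both 0 and the median of all regions. The peak at +39.4 kb was wider in WT, with 1872 bp against 1510 bp, and its fold enrichment was 9.54 in WT and 11.7 in KO. The other shared intergenic site upstream, at −8.4 kb, had 16 in WT and 19 in KO.

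The larger differences at Tal1 lay away from these 3 distances. At +32.6 kb, from 115088655 to 115089354, the promoter of Pdzk1ip1 had a pileup of 25 in WT and 69 in KO. That 2.93-fold ratio, 1.55 on the log2 scale (0.87 to 2.27), was the highest of the 29, and its summits were 1 bp apart. Pdzk1ip1 encodes a small membrane protein and is the next gene downstream of Tal1. The region at +6.9 kb, in a coding exon of Tal1, had 44 in WT and 63 in KO (0.60, 0.03 to 1.19). That interval excluded 0 and included the median of all regions. At +47.2 kb the pileup was 13 in WT and 21 in KO (0.78, −0.29 to 1.90), which was past 1.5-fold but within its counting interval.

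A pair of Tal1 regions were in 1 list only, and both were weak. The WT-only peak at −18.0 kb lay in a coding exon of Stil, a centriole gene upstream of Tal1, with a pileup of 8 and a fold enrichment of 4.10. The KO-only peak at +29.3 kb, from 115085467 to 115085725, was intergenic, with a pileup of 15 over a local background of 3.47 and a −log10 q of 3.83. Its nearest WT peak was 2930 bp away.

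Lyl1 (ENSMUSG00000034041.4, chromosome 8, 84701457 to 84704715, plus strand) encodes the relative of TAL1 that can take its place in adult HSCs. Its locus is gene-rich, and it had the most peaks of the 5. They covered 9249 bp in WT and 10389 bp in KO. Of its 15 regions, 12 were shared. The Lyl1 promoter region, from 84701095 to 84702033, had a pileup of 84 in WT and 90 in KO, for a log2 ratio of 0.19 (−0.26 to 0.63). The peaks of both lists began at the same base. This was also the region with the highest summed pileup of the locus, and its local background was high in both lists, 15.9 in WT and 12.6 in KO.

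Only this 1 of the 15 regions had Lyl1 as its nearest coding start, and the others lay nearer to a start of a neighbor. Which gene each site acts on was not tested. Trmt1, a tRNA methyltransferase gene, has an annotated start near the region at −1.4 kb, which had 42 in WT and 54 in KO (0.45, −0.16 to 1.07). The highest ratio of the locus was at the promoter of G430095P16Rik at +21.5 kb, with 30 in WT and 40 in KO (0.50, −0.22 to 1.23). Its summits were at the same base in both lists. The Nfix intron at +29.5 kb, whose sequence is printed above, had 40 in WT and 44 in KO (0.22, −0.43 to 0.88). Nfix encodes a nuclear factor I protein. The promoter of the immediate early gene Ier2, at −38.6 kb, had 45 in WT and 33 in KO (−0.36, −1.06 to 0.32). Its fold enrichment was 4.18 in WT and 4.86 in KO, and its local background 10.0 and 5.99. Nacc1, at −13.6 kb, had 24 in WT, where 2 peaks fell in the region, and 17 in KO. The shared regions at −44.5, −37.3, +3.8 and +36.4 kb had ratios between −0.07 and 0.43, and the one at +3.8 kb, in a UTR of Nfix, had the lowest WT fold enrichment at the loci, 2.29.

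The 2 regions of the loci that were past 1.5-fold lower in KO were both near Lyl1. The lowest ratio of all 29 was at −41.4 kb, from 84659937 to 84660533, with 35 in WT and 22 in KO (−0.58, −1.42 to 0.23). The other, in an Nfix intron at +11.2 kb, had 15 in WT and 10 in KO (−0.50, −1.81 to 0.75). Both intervals included 0. At −41.4 kb the fold enrichment was nearly equal, 2.95 in WT and 3.04 in KO, while the local background was 11.2 and 6.56. At +11.2 kb the fold enrichment was 4.82 in WT and 3.55 in KO. The 3 regions in 1 list only were the WT-only peak at +5.4 kb within 1000 bp of an Nfix start, with a pileup of 25 but a fold enrichment of 2.41, and the KO-only peaks at −12.3 kb near Trmt1 and at +44.1 kb in an Nfix intron, with pileups of 11 and 7. The WT-only peak stood on a local background of 9.78, and a KO peak lay 1277 bp from it.

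Lmo2 (ENSMUSG00000032698.15, chromosome 2, 103957986 to 103981878, plus strand) encodes the bridging subunit. Here 4 of 7 regions were shared, and of the 5 loci it had the largest difference toward WT in covered bases, with 7235 bp in WT and 6140 bp in KO. No peak of either list lay within 1000 bp of the first annotated start. The gene was open at a downstream start, at +11.6 kb, where the region from 103968883 to 103970515 had a pileup of 51 in WT and 36 in KO. This was the only promoter region of the 5 genes with a ratio below 0, a log2 ratio of −0.42 (−1.07 to 0.23), and it lay just inside the 1.5-fold limit at −0.58 relative to the median of all regions. Its fold enrichment was nearly equal, 6.68 in WT and 6.86 in KO, while the local background was 6.78 in WT and 4.40 in KO. It was also the region with the highest summed pileup of this locus.

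The sites upstream of Lmo2 had higher pileups in KO. At −12.1 kb, from 103944907 to 103946652, the pileup was 27 in WT and 41 in KO (0.69, −0.05 to 1.45), the highest ratio of the locus. At −27.0 kb the WT list had 1 peak of 1848 bp with a pileup of 21. The KO list had 2 peaks there, and the stronger had a pileup of 29 at the same summit base but was 463 bp wide, so the region counts as shared without a ratio. The fold enrichment at that summit was 4.88 in WT and 8.51 in KO. At the other end of the window, the Fbxo3 promoter at +69.9 kb, an F-box gene, had 30 in WT and 22 in KO (−0.36, −1.23 to 0.48).

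The strongest region in 1 list only was just behind the Lmo2 gene. The WT-only peak at +24.5 kb, from 103982077 to 103982922, lay in an intron of the overlapping gene 4931422A03Rik, with a pileup of 33, a fold enrichment of 6.62 and a −log10 q of 16.3. The nearest KO peak was 10830 bp away. Of the 8210 WT-only regions of the genome, 17 had a pileup of at least 33, and the median was 10. This peak was 846 bp wide, against the difference of −1095 bp over the whole locus. The KO-only peaks were weaker, at +4.2 kb in an Lmo2 intron with a pileup of 9 and at +13.2 kb near an Lmo2 start with a pileup of 13 and a −log10 q of 1.34. The latter was 389 bp from a WT peak.

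Ldb1 (ENSMUSG00000025223.15, chromosome 19, 46031570 to 46045214, minus strand) encodes the dimerizing subunit. Its peaks covered 4763 bp in WT and 5664 bp in KO. Both lists had a peak in 6 of its 8 regions. The gene had peaks at 2 promoters in each list. At the first, from 46044999 to 46045926, where Ldb1 and the coactivator gene Pprc1 start head to head, the pileup was 19 in WT and 27 in KO (0.59, −0.31 to 1.52). At the second, at +5.6 kb from 46039196 to 46040395, it was 15 in WT and 22 in KO (0.64, −0.37 to 1.69). The pileups of both promoters were higher in KO by like amounts, 1.51-fold and 1.56-fold over background, and neither interval excluded 0. Relative to the median of all regions, both were within the 1.5-fold limit, at log2 values of 0.43 and 0.47. Fold enrichment was 4.09 in WT and 6.79 in KO at the first promoter, and 3.06 and 5.66 at the second.

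The median log2 ratio of the 6 shared regions at Ldb1 was 0.59, the highest median of the loci with more than 1 such region, and 5 of the 6 were above 0 (65.6% over all regions). The highest was the promoter of Hps6, a gene of lysosome-related organelles, at +41.8 kb. It had a pileup of 17 in WT and 35 in KO, for a log2 ratio of 1.13 (0.25 to 2.06), and its peak was 373 bp wide in WT and 778 bp in KO. The lowest was a Pprc1 start at −11.3 kb, which also had the highest summed pileup, with 44 in WT and 39 in KO (−0.09, −0.75 to 0.57). Nolc1 at −30.7 kb had 17 in WT and 24 in KO, and Armh3 at +46.8 kb had 26 and 31. A WT-only intergenic peak at +30.5 kb had a pileup of 8. A KO-only peak at +3.1 kb, in an Ldb1 intron, had a pileup of 20, which 727 of the 7805 KO-only regions of the genome reached.

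Hhex (ENSMUSG00000024986.12, chromosome 19, 37434810 to 37440731, plus strand) encodes the homeobox factor. Its locus had few peaks and nearly all of the coverage in 1 broad region, which spanned the start and the first intron of the coding transcript. That region ran from 37434281 to 37436821, and its peak was 2473 bp wide in WT and 2386 bp wide in KO. The pileup was 71 in WT and 84 in KO (0.33, −0.14 to 0.80), and the fold enrichment 7.76 and 11.4. The summits were 5 bp apart, at +0.9 kb, the distance of the known intronic enhancer. The KO-only peak at +54.2 kb, with a pileup of 11 and a fold enrichment of 5.65, was 295 bp wide, more than the 208 bp by which covered bases were higher in KO, and the broad region alone differed by −87 bp.

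**Figure D4:**
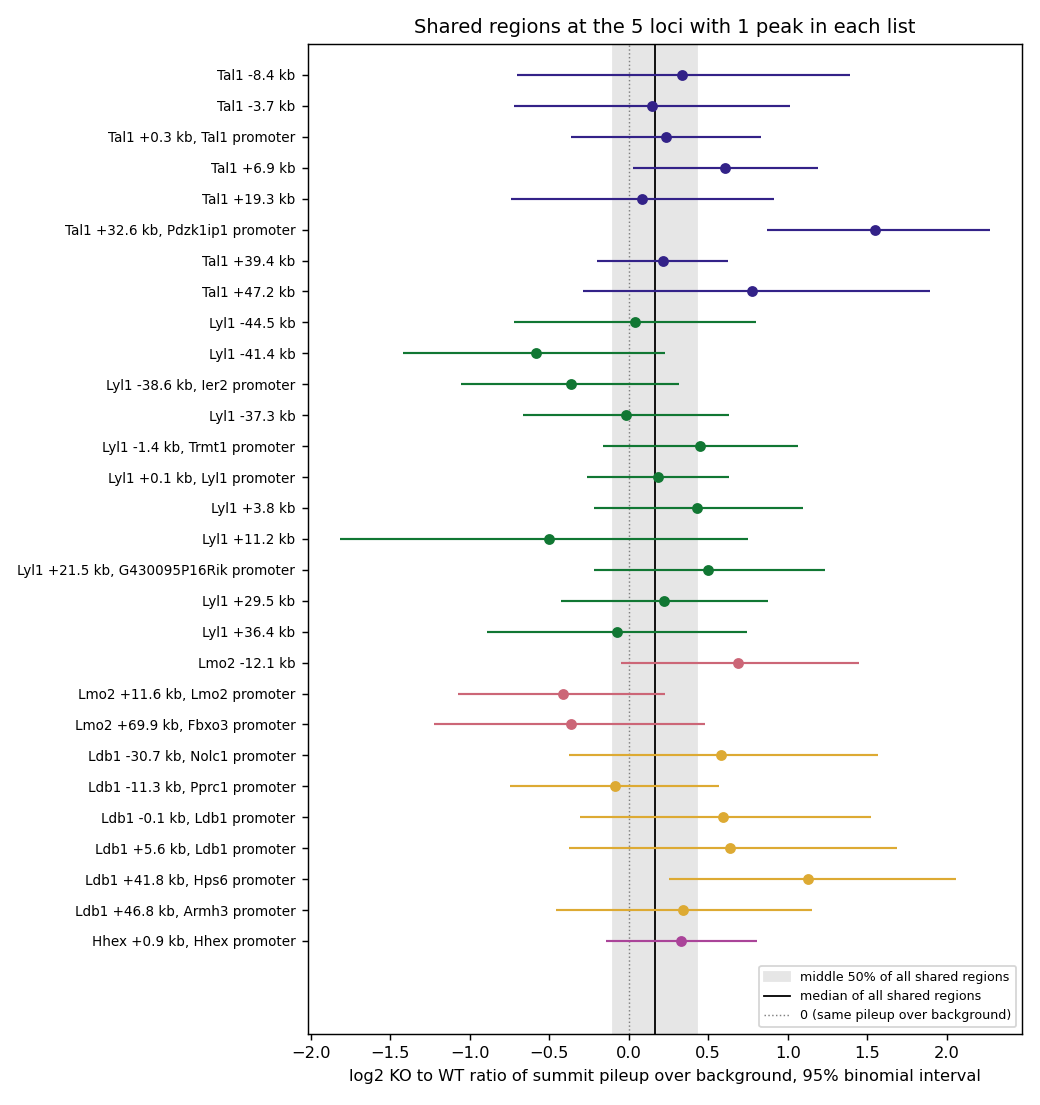
Log2 KO to WT ratio of summit pileup over background (x axis) for each of the 29 regions at the 5 loci with 1 peak of each list, named by gene and distance from its start, with 95% binomial intervals. The line is the median of all shared regions (0.17), the grey field their middle 50% and the dotted line 0. The intervals of the Pdzk1ip1 promoter (0.87 to 2.27) and the Hps6 promoter (0.25 to 2.06) lie above the line.

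Of the 29 intervals, 2 lay above the median of all regions, as did 1.91% over all regions, and 0 lay below it (1.54% over all regions). Above 0 lay 3 of the intervals (5.45% over all regions), and below 0 lay none of the 29 (0.377% over all regions). The 2 above the median were the promoters of the neighbors Pdzk1ip1 and Hps6, and the further one was the coding exon of Tal1. The promoters of the 5 genes themselves, 6 regions in all, had ratios from −0.42 to 0.64, of which 5 were above 0 (65.6% over all regions). Among these was the Hhex region, whose summit lay 857 bp from the start, at the distance of the known intronic enhancer. Regions whose nearest coding start belonged to 1 of the 5 genes numbered 17 of 42, and 19 of the 42 had their summit at a promoter of any coding gene, 13 were intergenic, 7 intronic, 2 in coding exons and 1 in a UTR. Among the 11 regions in 1 list only, 3 were at promoters, against 16 of the 31 shared ones. The same shares over all regions were not computed, so this contrast cannot be called particular to these loci. Pileups in KO-only regions ran from 7 to 20 with a median of 11, in WT-only regions from 8 to 33. Those of the shared regions spanned 13 to 97 in the WT list and 10 to 106 in the KO list.

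The loci of 20 further genes were measured the same way, among them GATA factors, E proteins, other LMO, LDB and SSBP genes, ETO family corepressors and blood factors that act with the complex. Of their 180 regions 119 were shared (66.1%), and 11 genes were more covered in KO and 9 less, with a median of 123.5 bp. The 2 largest differences in each direction were −2033 bp at Spi1, which encodes PU.1, and −1545 bp at Ssbp3, whose product protects LDB1 from degradation, and 1362 bp at Gata3 and 770 bp at Gata2. The differences at the 5 genes, from −1095 to 1140 bp, lay within that range. In covered bases over both lists, Runx1 was most like Tal1 and Lmo2 (6690 bp in WT and 6001 bp in KO), Tcf4 was most like Lyl1, Erg most like Ldb1 and Lmo4 most like Hhex. Likeness was the sum over the 2 lists of absolute log2 ratios of covered bases, 0.08 for Tcf4 and Lyl1 and 0.37 for Lmo4 and Hhex.

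Markers of the sorted cells and of other cell types were read at promoters, as was the promoter of Med23. The share of all coding genes with a promoter peak was not computed, so the marker counts do not show identity. Of 10 stem cell markers, 7 had a promoter peak in both lists, among them Kit, Mecom, Hlf and Meis1, while Ly6a, Slamf1 and Procr had none in either. Cd48, whose protein the sort excluded, and Cd34, whose protein it excluded by the labels alone, had promoter peaks in both lists, as did all 3 megakaryocyte markers (pileups of 25 to 46 in WT and 27 to 49 in KO). B cell markers had 1 of 4 in each list (Pax5) and T cell markers 1 of 4 (Cd3d). Of 6 granulocyte and monocyte markers, 1 had a peak in WT (S100a8) and 0 in KO. The part of other cell types in the values at the 5 loci was not tested. Med23 had a promoter peak with a pileup of 64 in WT and 85 in KO. Only its promoter was read, so the deletion was not checked.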

How the data were processed

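ATAC-seq peak lists of WT and KO HSCs, 1 per genotype, were used. Per the submitters' processing notes, Trim Galore, Bowtie2, Picard and MACS2 were used with build mm10 (versions not given in the sources used here), the last without a fragment model. The deposited lists hold, per peak, the authors' fold enrichment at the summit and the authors' −log10 p and −log10 q. Whether the reads of both labelled samples were pooled is not stated, and depth in reads is unknown.

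Peaks on 19 autosomes and chromosome X were merged into regions where they overlapped by at least 1 bp (Python 3.11.15, pandas 2.3.3, scipy 1.17.1). Summit pileup and local background were solved from fold enrichment and −log10 p under the Poisson model, which gave a whole pileup within 0.001 of the −log10 p for 99.99% of WT and 99.97% of KO peaks. The procedure was tested on simulated data. Genome-wide background was the median of the 1000 lowest local backgrounds of a list. Log2 ratios carry no pseudocount, and their intervals are exact 95% binomial ones for 2 pileups. Fragments are not independent molecules, so intervals cover counting error only. A promoter peak had its summit within 1000 bp of a GENCODE M21 start. Distances are from the 5′ end of the annotated gene to the summit of the list with the higher pileup. Motifs were counted in 200-bp summit windows of GRCm38.p6.

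Regions named were every promoter region of the 5 genes, every region in 1 list only, and promoters of coding neighbors. So were the shared regions of each locus with the highest and lowest ratio and the highest summed pileup. The regions nearest the known elements of Tal1 and Hhex were named as well. A few others were added after their values were seen. The genes and lists were chosen with earlier results of these data known. Alternatives were other flanks, a −log10 q of at least 10, nearest-start assignment, other overlap and promoter limits, and other scales of the ratio. The erythroid marker list is not reported here.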

Additional observations from a re-analysis of the deposited data

How the results depend on the processing

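No paired analysis was possible because there was a single list for each genotype, which also leaves no replicate to omit. With 10 kb on each side, the loci held 15 WT and 16 KO peaks over 13382 and 14166 bp, 0 regions were past 1.5-fold higher and 1 lower, and the difference at Hhex turned to −87 bp. With 100 kb, the summed difference turned from 835 to −1760 bp and that at Lyl1 to −288 bp. At a minimum −log10 q of 10, 20 WT and 25 KO peaks were left and the summed difference was 4124 bp. Tal1 turned to 332 bp and Hhex to −87 bp, and 1 region was past 1.5-fold higher and 0 lower. Fold enrichment was higher in KO in 77.6% of all shared regions, and the difference over all genes at this limit was not computed. With only regions whose nearest coding start was 1 of the 5 genes, 13 WT and 16 KO peaks covered 14543 and 14268 bp, a difference of −275 bp, and 0 regions were past 1.5-fold in either direction. The higher coverage in KO over the 5 loci therefore depends on the window, and fewer peaks follow from smaller windows and a stricter limit by construction. The median log2 ratio was 0.15 with raw pileups, where the median of all regions was 0.08, and 0.45 with fold enrichment, where it was 0.26 and 1 region was past 1.5-fold lower. The sign of the difference at Lmo2 and Ldb1 was the same in the 4 alternatives run for each, as was the side of 0 of the median log2 ratio in 6. In those 6 the median of all regions was above 0 too, from 0.08 to 0.26, so that side does not set these loci apart. The percentage of shared regions ran from 63.5 to 73.8. The cause of the changes in sign was not tested. Most regions in 1 list only had pileups of 7 to 15, which limits what their presence in that list can show.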

Other observations

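Sites 50 to 100 kb from the genes, outside the loci as defined, were read after the other values were known. Upstream of Lmo2, 4 further regions lay between −64.0 and −51.2 kb. The shared one, at −51.2 kb, had a pileup of 20 in WT and 17 in KO. The WT-only peaks at −64.0 and −55.9 kb had pileups of 18 and 11, and a KO-only peak at −61.4 kb had 10. At Tal1, the promoter of Stil at −56.4 kb had a pileup of 57 in WT and 86 in KO, for a log2 ratio of 0.68 (95% binomial interval 0.18 to 1.19). The promoter of Cmpk1 at −69.5 kb, next in line, had 51 and 54 (0.17, −0.41 to 0.75). The Kif11 promoter at −58.6 kb from Hhex had 42 and 33 (−0.26, −0.97 to 0.43).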
